A study of Mus musculus with 12 samples.

Results

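Solute carriers are membrane proteins that move amino acids, sugars, nucleotides, ions and metals across the plasma membrane and the membranes of organelles. They are grouped into numbered Slc families by sequence. In T cells, amino acid and glucose carriers are best known for the supply of nutrients after activation, while the Slc25 family carries metabolites across the inner mitochondrial membrane and the Slc35 family brings nucleotide sugars into the Golgi and endoplasmic reticulum. The genes described here were those of the deposited expression table whose symbol begins with Slc and a number, leaving out the Slc15 peptide carriers. They numbered 175 of 11581 genes: 38 of the Slc25 family, 11 of the Slc7 and Slc38 families, and 126 of other families, from 41 families in all. A further 2 rows are Slc15 genes. Of the 175, 167 are carriers and 8 only bear a carrier's name: Slc36a3os and Slc6a19os (antisense transcripts), Slc25a5-ps, Slc2a4rg-ps and Slc22a13b-ps (pseudogenes), the scaffold protein gene Slc9a3r1, Slc7a6os and Slc4a1ap. GENCODE M21 annotates 356 protein-coding genes with such symbols, and 167 of these symbols had a row.

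Messenger RNA was sequenced from OT-1 CD8 T cells, which carry a transgenic receptor for SIINFEKL, a peptide of ovalbumin. Mixed bone marrow chimeras were made by giving C57BL/6 J hosts, which are CD45.2+, marrow from an OT-1 Foxp3Scurfy CD45.1+/2+ or an OT-1 Foxp3wt CD45.1+/2+ donor together with CD45.2+ marrow, and cells were taken 2 months later. Scurfy mice carry a mutation that inactivates Foxp3, which encodes the transcription factor that defines regulatory T cells. The comparison was between 3 unstimulated scurfy and 3 unstimulated wild-type libraries, of 12 libraries in 4 groups, and the libraries given peptide for 6 h were not analysed here. No label states that each library is from its own mouse, and the p-values then measure only the spread between these libraries, which may be technical.

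The libraries held 8852518 to 23149523 reads over the genes of the table. Values are normalized counts, that is reads divided by a size factor per library, in which 3 reads correspond to 1.45 to 3.99. Foxp3 has no row in the table, so the genotype labels could not be checked on it. All 8 CD8 T cell markers had rows, summing to 66567 to 73323 normalized counts in scurfy and 60821 to 62048 in wild-type libraries, and Cd3d among them rose (11635 ± 1898 against 6837 ± 281, SD, n = 3, limma adjusted p = 0.00551). Of markers of other cells, 7 of 11 for B cells (sum 9895 to 11352 in scurfy, 10971 to 11753 in wild type), 2 of 12 for myeloid cells (1463 to 1579 against 850.2 to 1172), 1 of 8 for erythroid cells (101.3 to 156.0 against 231.5 to 314.7), 1 of 5 for CD4 T cells (47.3 to 80.5 against 45.2 to 67.1) and 0 of 6 for natural killer cells had rows. The B cell marker H2-Aa fell (15.7, 0 and 4.73 against 57.2, 84.1 and 73.9), Cst3 of the myeloid list rose, and Car2 of the erythroid list fell (limma with Benjamini-Hochberg adjustment, adjusted p = 0.0164, 0.0202 and 0.0139). Most of the B cell sum was Ighm (10309 against 10862). The class II genes H2-Ab1 (1.61 against 20.5), H2-Eb1 (4.39 against 24.5) and Cd74 (16.4 against 33.6) were lower in every scurfy library without passing. Ighm and, of the same list, Cd79b (136 against 166) and Ighd (195 against 215) overlapped between groups. The part of such cells in the carrier values was not tested. In bulk RNA, fewer cells of a type and less RNA per cell cannot be told apart.

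Few solute carriers passed the threshold for a difference between unstimulated scurfy and wild-type cells. Slc25a28, the mitochondrial iron importer mitoferrin-2, rose, and the glutamine and alanine carrier Slc38a1, the mitochondrial carrier Slc25a30 and the Golgi UDP-N-acetylglucosamine carrier Slc35a3 fell. These 4 of 175 genes (2.29%) passed limma's test on log2(normalized count + 1) at an adjusted p under 0.05, against 4.47% of all genes tested (2.12% higher and 2.35% lower in scurfy cells). By group, 2 of 38 Slc25 genes, 1 of 11 Slc7 and Slc38 genes and 1 of 126 other genes passed. The share of carriers called was thus below that of all genes, with no test of that difference. On the recovered reads, edgeR's quasi-likelihood test and limma with voom called the same 4 carriers, and 4.84% (2.15% higher, 2.69% lower) and 4.65% (2.14% higher, 2.51% lower) of all genes. At an unadjusted p under 0.05 there were 35 carriers (12 higher, 23 lower), or 20%, against 21.2% of all genes. Of these 35, 65.7% were lower, against 53.3% of all genes with such a p. The 3 scurfy values lay all above or all below the 3 wild-type values for 43 carriers (16 above, 27 below), or 24.6%. The share of all genes was 27.1% (13.4% above, 13.7% below). These differences in direction were not tested.

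The sizes of change were close to those of all genes. The log2 fold change, scurfy minus wild type, lay within 0.5 of 0 for 137 of the 175 genes (78.3%, against 77.9% of all genes) and was over 2-fold in size for 9 (5.14% against 5.11%). Its median was -0.05, against 0.01 for all genes, with 80 positive and 95 negative values (54.3% negative, against 48.9% of all genes). The median was -0.13 for Slc25, 0.03 for Slc7 and Slc38, and -0.04 for the other genes. Precision followed depth: the median standard error was 0.499 for the 36 carriers with a mean normalized count under 50 and 0.109 for the 14 above 1000. All 4 calls fell among the 68 carriers with means of 200 to 1000, where 5.56% of all genes passed. Scaling to library size instead of the deposited size factors moved the median of all genes by about the same amount as that of the carriers, to -0.13 and -0.19, and then 13 carriers (7.43%) passed, 0 higher and 13 lower, beside 935 of all genes (8.07%), 169 of them higher.

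**Figure D1:**
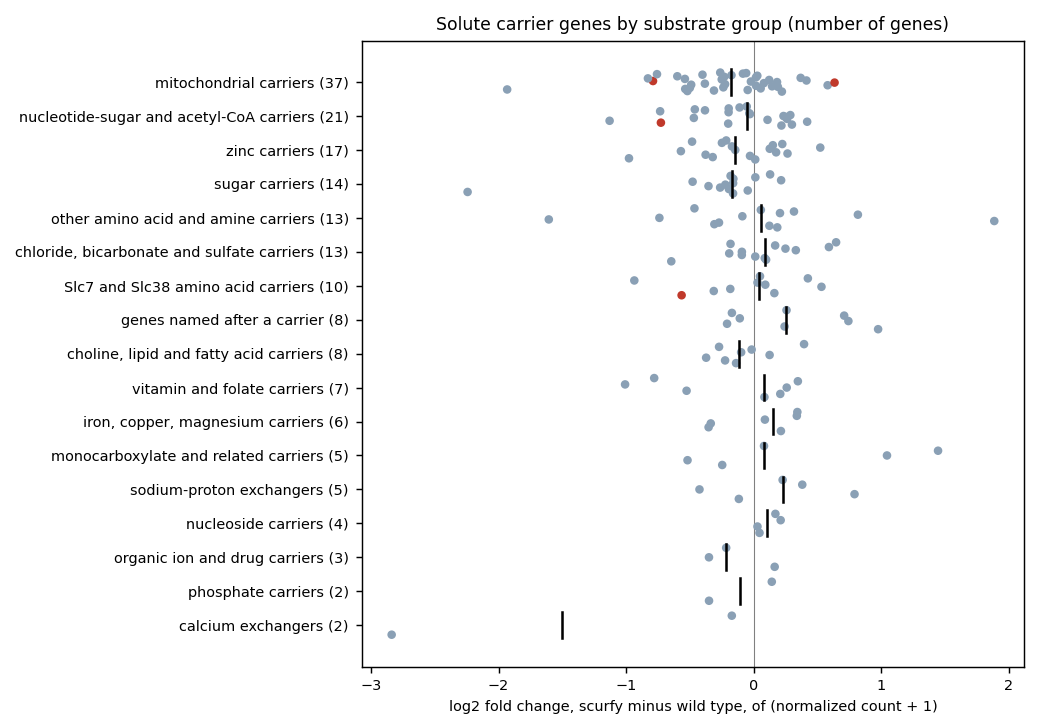
Log2 fold change, scurfy minus wild type (horizontal axis), of each solute carrier gene (1 point each), set out by substrate group, with the median of each group as a black bar. Carriers were put in groups by family. Most points lie within 0.5 of 0, and the 4 genes that passed limma's test are in red.

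Among mitochondrial carriers, Slc25a28 was the gene that rose. It delivers iron to the mitochondrial matrix for heme and iron-sulfur cluster synthesis. The gene (ENSMUSG00000040414, chromosome 19) had normalized counts of 708.4, 572.4 and 649.0 in scurfy libraries and 382.8, 350.9 and 522.0 in wild-type libraries. All scurfy values lay above all wild-type values. The means were 643 ± 68.2 and 419 ± 91.0 (SD, n = 3), a fold of 1.54 and a log2 fold change of 0.63 (SE 0.16, 95% interval 0.29 to 0.98, limma adjusted p = 0.0421). Slc25a37, the other mitoferrin, went the opposite way in its estimate, with 49.6, 41.5 and 15.4 against 73.1, 36.2 and 70.5, and its interval included 0 (log2 fold change -0.83, interval -1.80 to 0.14, limma adjusted p = 0.313).

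Slc25a30, a member of the uncoupling protein branch of the family, fell. The gene (ENSMUSG00000022003, chromosome 14) had 142.9, 170.9 and 126.5 normalized counts in scurfy and 292.4, 230.5 and 238.4 in wild-type libraries, without overlap. The means were 147 ± 22.4 and 254 ± 33.7 (SD, n = 3), a fold of 0.578 and a log2 fold change of -0.79 (SE 0.20, interval -1.22 to -0.36, limma adjusted p = 0.0389).

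Slc35a3 fell to a similar degree. It carries UDP-N-acetylglucosamine into the Golgi, where the sugar is used to branch N-glycans. The gene (ENSMUSG00000027957, chromosome 3) had 179.2, 145.2 and 154.9 normalized counts in scurfy and 230.0, 318.0 and 251.8 in wild-type libraries, again without overlap. The means were 160 ± 17.5 and 267 ± 45.9 (SD, n = 3), a fold of 0.599 and a log2 fold change of -0.73 (SE 0.20, interval -1.15 to -0.31, limma adjusted p = 0.0497, just inside the threshold). Its exons overlap those of Gm43191 on the same strand, so reads could be shared.

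Slc38a1 had the smallest p of all the carriers. It is a sodium-coupled carrier of neutral amino acids at the cell surface. The gene (ENSMUSG00000023169, chromosome 15) had 672.0, 580.9 and 581.6 normalized counts in scurfy and 781.6, 952.1 and 988.7 in wild-type libraries, with every scurfy value below every wild-type value. The means were 612 ± 52.4 and 907 ± 111 (SD, n = 3), a fold of 0.674 and a log2 fold change of -0.56 (SE 0.13, interval -0.85 to -0.28, limma adjusted p = 0.0279).

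**Figure D2:**
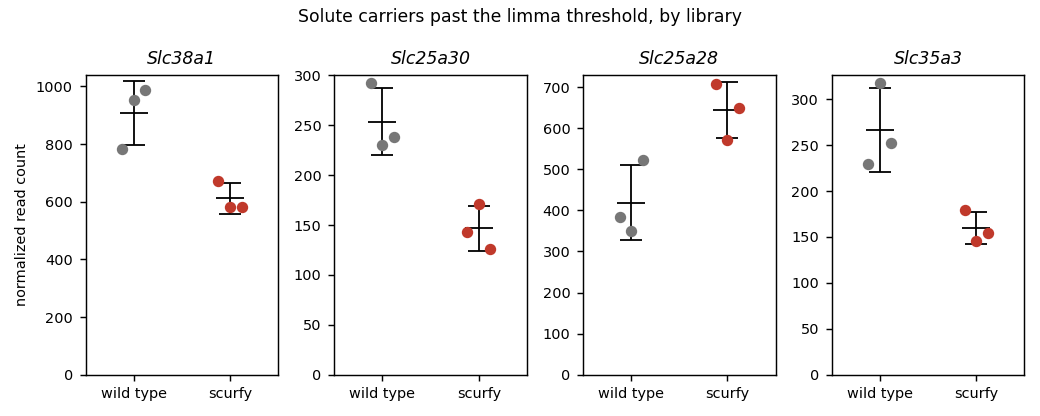
Normalized counts (vertical axis) of Slc38a1, Slc25a30, Slc25a28 and Slc35a3 in each of the 3 scurfy and 3 wild-type libraries (points), with the mean and SD of each group. In each gene the points of the groups do not overlap, Slc25a28 being higher and the other 3 lower in scurfy libraries.

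With 1 library left out the estimates kept their direction, while most of the calls ended. The log2 fold change ran from -0.67 to -0.50 for Slc38a1, 0.52 to 0.80 for Slc25a28, -0.90 to -0.68 for Slc25a30 and -0.83 to -0.59 for Slc35a3 over the 6 such fits, in which calls over all genes fell from 518 to between 113 and 403. Slc38a1 passed limma's test in 2 of the 6 fits that left out 1 library (without scurfy replicate 1 and without wild-type replicate 1, highest adjusted p otherwise 0.106), Slc25a28 in 1 (without wild-type replicate 3, highest 0.144), and Slc25a30 and Slc35a3 in 0 (highest 0.117 and 0.183). Across all genes the log2 fold change fell with exonic length (Spearman -0.247 over 11571 genes; -0.164 over the 175 carriers, as descriptions across genes of shared libraries). With that trend removed, the log2 fold changes were 0.65 for Slc25a28, -0.76 for Slc25a30, -0.61 for Slc35a3 and -0.41 for Slc38a1, whose exons span 17236 bases, with limma adjusted p = 0.0459, 0.0594, 0.0977 and 0.107, so that Slc25a28 still passed and the other 3 did not.

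The stretches just upstream of the transcription start of the 3 called genes found in the RefSeq promoter table are shown, because those genes moved in different directions. Each line gives 250 bases on the gene's strand, 5′ to 3′, from RefSeq on GRCm38.p6, at chr19:43674882-43675131, chr14:75787038-75787287 and chr3:116712281-116712530, all on the minus strand. Capitals mark the GC box, whose letters are GGGCGG, and the CCAAT box, each on either strand.
Slc25a28: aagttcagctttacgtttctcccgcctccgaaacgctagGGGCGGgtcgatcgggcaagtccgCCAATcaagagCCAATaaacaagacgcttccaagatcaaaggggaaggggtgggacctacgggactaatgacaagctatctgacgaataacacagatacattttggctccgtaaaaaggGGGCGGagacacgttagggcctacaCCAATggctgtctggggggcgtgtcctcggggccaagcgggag
Slc25a30: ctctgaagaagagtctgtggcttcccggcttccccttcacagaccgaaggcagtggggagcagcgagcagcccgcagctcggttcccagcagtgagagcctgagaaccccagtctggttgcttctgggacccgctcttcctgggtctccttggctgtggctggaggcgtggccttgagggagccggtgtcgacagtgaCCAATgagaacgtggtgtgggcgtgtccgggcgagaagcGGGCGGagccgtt
Slc35a3: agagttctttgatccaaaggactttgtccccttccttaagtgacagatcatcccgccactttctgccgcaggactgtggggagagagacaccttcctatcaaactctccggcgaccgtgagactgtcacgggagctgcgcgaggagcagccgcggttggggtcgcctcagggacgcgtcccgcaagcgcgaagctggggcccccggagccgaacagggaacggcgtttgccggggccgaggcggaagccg
Slc25a28 holds 2 GC boxes and 3 CCAAT boxes, Slc25a30 holds 1 of each, and Slc35a3 holds neither in this window. None of the 3 holds CACGTG (E-box), TGATGNAA (C/EBP-ATF element) or CCGGAAG (Ets site). Of all 32851 promoters of this length, 32.7% hold GGGCGG, 33.8% CCAAT, 6.02% CACGTG, 3.45% TGATGNAA and 6.91% CCGGAAG. Of the 167 promoters of the protein-coding genes among the 130 matched members, 62.9% hold GGGCGG, 35.9% CCAAT, 13.8% CACGTG, 2.4% TGATGNAA and 13.8% CCGGAAG. A gene can have several promoters, and genes only named after a carrier are included. The 32851 promoters were not limited to genes with a row, as the members were. The 2 sets of shares are therefore not alike, and their difference was not tested. The motifs were searched on both strands, no matches overlap in the 3 promoters shown, and a match describes the letters only.

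Of the other mitochondrial carriers, none passed, and 10 of the 38 Slc25 genes (26.3%, against 21.2% of all genes) had an unadjusted p under 0.05. Of these 10, 7 were lower in scurfy libraries (70%, against 53.3% of all genes with such a p). Slc25a36, a pyrimidine nucleotide carrier, had 339.0, 289.2 and 281.3 against 461.3, 464.5 and 396.1 (log2 fold change -0.54, limma adjusted p = 0.0614). Slc25a23, a calcium-regulated ATP-magnesium/phosphate carrier, had 420.2, 332.0 and 479.9 against 311.0, 276.0 and 232.5 (0.58, adjusted p = 0.0803). Slc25a11, the oxoglutarate-malate carrier, had 1373, 1385 and 1313 against 1522, 1773 and 1768 (-0.31, adjusted p = 0.113). These 3 did not overlap between groups. The log2 fold change was -0.76 for Slc25a46, of the outer membrane, -0.40 for Slc25a45 and 0.37 for Slc25a38, a glycine carrier needed for heme synthesis (limma adjusted p = 0.138, 0.141 and 0.222).

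Mitochondrial carriers of adenine nucleotides, phosphate, citrate and aspartate-glutamate showed no difference that passed. Slc25a4, an adenine nucleotide translocase, had 3395 ± 229 against 3985 ± 307 (SD, n = 3), with no overlap (log2 fold change -0.23, interval -0.45 to -0.01, limma adjusted p = 0.215). Its paralog Slc25a5 had 6004 ± 296 against 6361 ± 259 (-0.08, interval -0.29 to 0.13), and the pseudogene Slc25a5-ps is listed separately, so reads of near-identical copies are uncertain. The phosphate carrier Slc25a3 had a log2 fold change of -0.02 (interval -0.31 to 0.27). The citrate carrier Slc25a1 had 0.22 (interval -0.18 to 0.62). For Slc25a3 and Slc25a5 the intervals leave room for changes of up to 0.31 in size on the log2 scale. Slc25a13, an aspartate-glutamate carrier, had low counts, with 0 in scurfy replicate 3 (4.84, 18.3 and 0 against 27.9, 10.2 and 18.5).

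**Figure D3:**
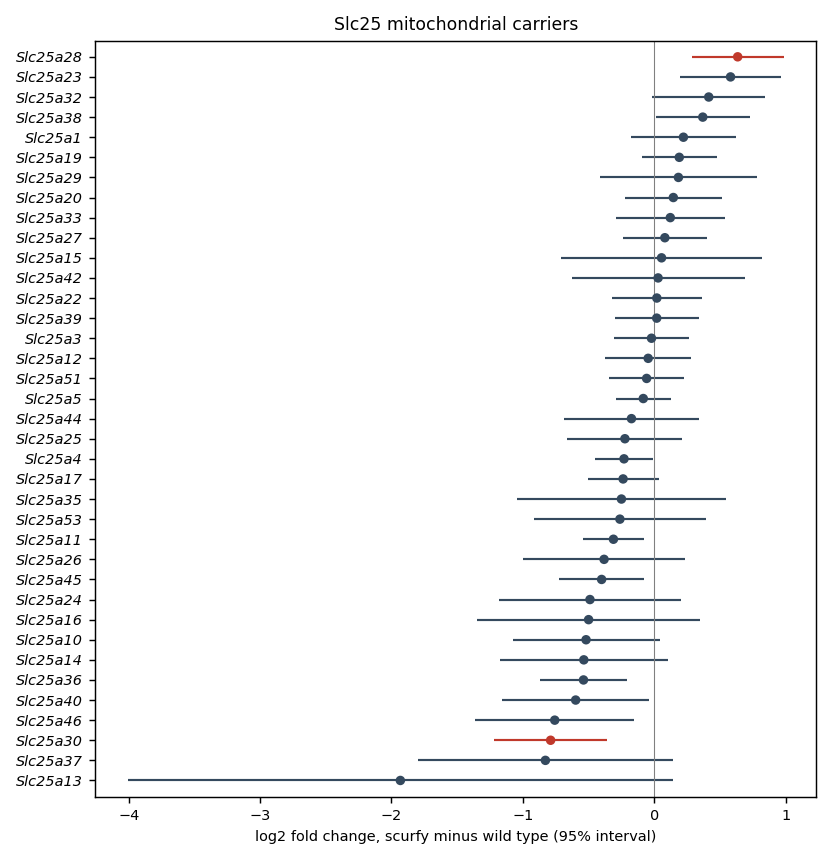
Log2 fold change, scurfy minus wild type (horizontal axis), with 95% intervals from limma, of the 37 Slc25 carriers, the pseudogene left out. Slc25a28 and Slc25a30 are the red genes on either side of 0, and the widest intervals belong to genes of low count such as Slc25a13.

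Amino acid carriers other than Slc38a1 did not pass. The neutral amino acid carrier Slc38a2 had 1752, 1490 and 1606 normalized counts in scurfy and 2092, 1946 and 1974 in wild-type libraries, without overlap (log2 fold change -0.31, interval -0.54 to -0.09, limma adjusted p = 0.104). Slc1a5, the glutamine exchanger ASCT2, had 2008, 1427 and 1558 against 1919, 1871 and 2358, which overlap (-0.31, interval -0.60 to -0.02, adjusted p = 0.21). The taurine carrier Slc6a6 had 435.9, 529.7 and 489.4 against 630.1, 768.5 and 613.5, without overlap (-0.46, interval -0.77 to -0.16, adjusted p = 0.0751). Each of these 3 had a negative estimate with an interval below 0 before adjustment.

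The leucine carrier Slc7a5 and its partner Slc3a2, the CD98 heavy chain, did not differ past the threshold. Slc7a5 had 95.7, 75.7 and 67.4 against 53.2, 69.6 and 53.7 (log2 fold change 0.43, interval -0.20 to 1.05), and Slc3a2 had -0.09 (interval -0.37 to 0.19). The cationic amino acid carrier Slc7a1 and Slc7a6, another partner of Slc3a2, had 0.03 (interval -0.33 to 0.39) and 0.05 (interval -0.36 to 0.46). Slc7a3 was low in all libraries (7.27, 22.0 and 26.0 against 41.2, 30.4 and 26.0). Slc38a9, the lysosomal arginine sensor of the mTORC1 pathway, had 0.09 (interval -0.18 to 0.36), and Slc38a6, Slc38a7 and Slc38a10 had -0.18, 0.53 and 0.16. The kidney and gut carrier Slc6a19 had 1664, 1555 and 1966 against 1584, 1681 and 1698, a log2 fold change of 0.06 (interval -0.19 to 0.30). Slc43a1 and Slc43a2, L-type carriers, were higher in every scurfy library without passing (0.82 and 0.21, limma adjusted p = 0.298 and 0.349).

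None of the 4 rows of the Slc36 family, which are 3 genes of proton-coupled amino acid carriers and 1 antisense transcript, passed. In each the groups did not overlap, as in 27.1% of all genes, with 2 rows higher and 2 lower in scurfy libraries. Slc36a3 had 29.1, 23.2 and 35.5 against 5.32, 8.70 and 7.55 (log2 fold change 1.89, interval 0.71 to 3.07, limma adjusted p = 0.0658), at low counts in wild-type libraries. The antisense transcript Slc36a3os had 142.9, 156.2 and 201.0 against 93.0, 134.4 and 75.5 (0.74, adjusted p = 0.114). Slc36a4 had 19.4, 2.44 and 8.27 against 21.3, 29.5 and 26.0, and the lysosomal carrier Slc36a1 had 197.4, 164.8 and 201.0 against 216.7, 214.1 and 248.4 (-1.61 and -0.27, adjusted p = 0.183 and 0.429).

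**Figure D4:**
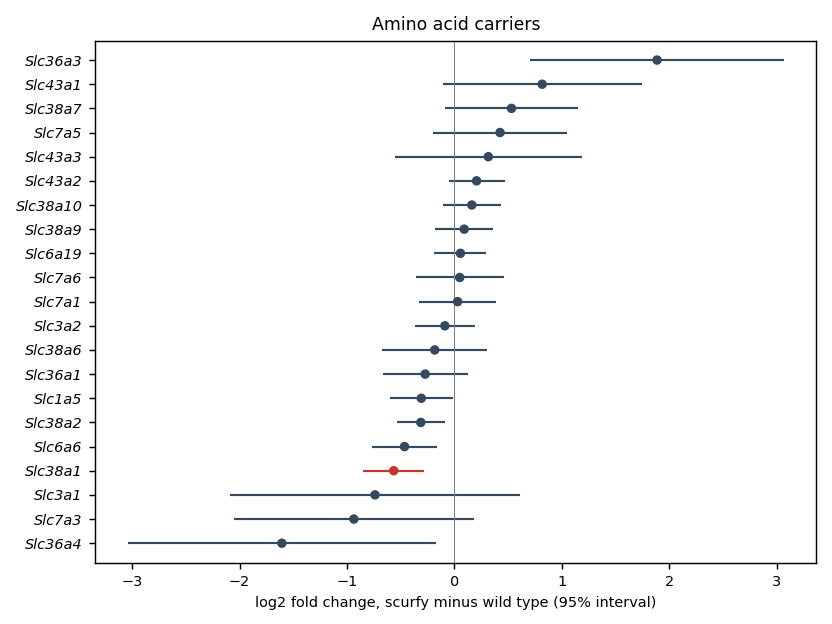
Log2 fold change, scurfy minus wild type (horizontal axis), with 95% intervals from limma, of 21 genes of amino acid carrier families. Slc38a1, in red, passed the test, and the intervals of Slc38a2, Slc6a6, Slc1a5 and Slc36a4 also lie below 0, and that of Slc36a3 above 0, before adjustment.

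The group of nucleotide-sugar and acetyl-CoA carriers held 21 genes, 20 of them of the Slc35 family. They were grouped by family and not by the known substrate of each gene. Of these 21, 1 passed (4.76%, against 4.47% of all genes). After Slc35a3, the smallest p belonged to Slc35a5, a Golgi carrier of the same subfamily, with 55.7, 62.2 and 117.0 normalized counts in scurfy and 239.3, 122.3 and 148.6 in wild-type libraries (log2 fold change -1.13, limma adjusted p = 0.0594). The orphan Slc35e2 and Slc35b3, which carries the sulfate donor PAPS, had -0.73 and -0.47 (adjusted p = 0.072 and 0.0878). Slc35a4 had 659.9, 689.5 and 666.7 against 517.1, 439.8 and 556.4 (0.42, adjusted p = 0.0889), though its exons overlap those of Apbb3 on the opposite strand. The median over the 21 was -0.05.

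Carriers of the sugar, nucleoside and monocarboxylate families stayed short of the threshold. The 6 carrier genes of the Slc2 family had negative log2 fold changes (median -0.23), as did 48.9% of all genes. Of these 6, 0 passed limma's test, with 0 at an unadjusted p under 0.05. Slc2a1, the glucose carrier GLUT1, had 196.2, 224.6 and 331.0 against 309.7, 247.0 and 266.9 (-0.16, interval -0.60 to 0.28), and Slc2a3, GLUT3, had -0.05 (interval -0.42 to 0.32), a sign that changed with the removal of the length trend. Slc2a12 had 53.3, 47.6 and 2.36 against 144.9, 73.5 and 85.6, without overlap. Its estimate was lower in scurfy with a wide interval that included 0 (-2.24, interval -4.64 to 0.15, limma adjusted p = 0.263). Of the 4 nucleoside carriers, Slc29a1 had 0.03 (interval -0.34 to 0.40) and the lysosomal Slc29a3 had 0.17. The lactate carrier Slc16a1 had -0.25 (interval -0.68 to 0.19). Slc16a5, of the same family but not named here as a lactate carrier, had 43.6, 24.4 and 88.7 against 11.96, 20.8 and 16.8 (1.45, limma adjusted p = 0.109). Slc37a3, of the sugar-phosphate family, had -0.48 (adjusted p = 0.148).

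Carriers of ions, metals, vitamins and lipids also gave no call. Slc44a2, a choline carrier-like protein, had 1285, 1220 and 1391 against 969.0, 956.0 and 1034, without overlap (log2 fold change 0.40, interval 0.16 to 0.63, limma adjusted p = 0.0553), and it passed with the length trend removed (adjusted p = 0.0317). The ascorbate carrier Slc23a2 had 253.1, 244.1 and 206.9 against 307.1, 331.6 and 376.0, without overlap (-0.53, adjusted p = 0.0903). The 17 zinc carriers had a median of -0.14, and Slc30a7, which loads zinc into the Golgi, had -0.38 (adjusted p = 0.143). The heme carrier Slc48a1 and the iron importer Slc11a2 had 0.34 and 0.21 (adjusted p = 0.2 and 0.403), and the phosphate importer Slc20a1 had -0.35 (adjusted p = 0.161). The sodium-proton exchanger Slc9a8 had 0.38, and the scaffold gene Slc9a3r1 had 0.26 (adjusted p = 0.165). Slc12a2, the sodium-potassium-chloride carrier NKCC1, had -0.65 (interval -1.42 to 0.13), the potassium-chloride carrier Slc12a7 had 0.01 (interval -0.19 to 0.22), the folate carrier Slc19a1 had 0.08 and the urea carrier Slc14a1 had 0.17. Slc24a5, a sodium-calcium exchanger, had 7.27, 10.98 and 0 against 43.9, 13.5 and 54.6 (-2.84, adjusted p = 0.0844), and its exons overlap those of Myef2 on the opposite strand.

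Of 30 carriers listed for their roles in T cells, 26 had a row, and 1 rose (Slc25a28) and 1 fell (Slc38a1), which is 7.69% against 4.47% of all genes. Both are calls already given above, and the lists were chosen with earlier results of these data known. Of 38 carriers with other symbols, 28 had a row and 0 passed limma's test, with 5 (17.9%, against 21.2% of all genes) at an unadjusted p under 0.05. The smallest p was that of Tusc3, with 147.7, 156.2 and 135.9 against 214.0, 217.5 and 255.1 (log2 fold change -0.64, limma adjusted p = 0.072). Among 31 genes of amino acid sensing with a row, 1 (3.23%) fell: Lamtor1, which anchors the Ragulator complex to lysosomes, had 1119, 831.1 and 846.4 against 1678, 1156 and 1537 (-0.64, adjusted p = 0.0306). Among 24 genes of mitochondrial pores and protein import with a row, 1 (4.17%) rose: Timm8b, an intermembrane space chaperone, had 681.7, 745.7 and 832.2 against 397.4, 586.3 and 357.5 (0.78, adjusted p = 0.0232). With the length trend removed Timm8b had 0.40 and did not pass (adjusted p = 0.177). The calls of Lamtor1 and Timm8b each ended in fits without scurfy replicate 2, scurfy replicate 3, wild-type replicate 1 or wild-type replicate 3 (adjusted p of 0.078 to 0.11 and 0.0674 to 0.0877).

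In the authors' deposited table, 155 of the carriers have an adjusted p, and 11 of these are under 0.05, 4 higher and 7 lower (7.1%, against 8.9% of all genes with one, 4.15% higher and 4.76% lower). They are the 4 above with Slc35a5, Slc44a2, Slc25a36, Slc16a5, Slc25a23, Slc35e2 and Slc6a6. The smallest adjusted p in the authors' deposited table among the carriers is 0.00391, for Slc38a1. DESeq2 on the recovered reads gave the same counts (891 of 10008 genes) and the same 11 carriers, so it is not a separate result.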

How the data were processed

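Messenger RNA of CD8 T cells was sequenced in 12 libraries in 4 groups of 3. Per the labels' protocols, polyadenylated RNA was primed with indexed oligo-dT, amplified by in vitro transcription and run on an Illumina NextSeq. The submitters' processing notes name Trim Galore 0.4.4, STAR 2.6, featureCounts, edgeR, DESeq2 and build NCBIM37 without roles. Whether strand was used in counting is not stated, which leaves antisense and overlapping genes uncertain. Both deposited tables hold the same values for the 6 unstimulated libraries.

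The deposited values are signal values: reads over the size factor of each library. In each library 100% of nonzero values were whole multiples of 1 read, within 0.01 read. The authors' own log2 fold change, standard error, test score, p-value and adjusted p-value stand in the deposited table, per the file headers. Low genes were removed by the authors with an unstated rule, so a missing row says nothing about a level.

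limma 3.58.1 (R 4.3.3) was fitted to log2(value + 1) of all 11581 genes over the 6 libraries, with trend and robust moderation (4 residual and 10.7 prior degrees of freedom), no covariate, and Benjamini-Hochberg adjustment at 0.05. Fold changes on that scale can be too small or too large for low genes. The log2 fold change of Slc36a3 was 1.89 here and 1.99 in the authors' deposited table. That of Slc25a13, at 0 in scurfy replicate 3, was -1.93 here and -1.27 there. The script was tested on simulated data. Alternatives, including edgeR 4.0.16 and DESeq2 1.42.0 on recovered reads, are in the closing section. Lengths and overlaps are from GENCODE M21. Overlaps on the opposite strand are not given at each gene. Other named carriers have them too, among them Slc25a11, Slc25a23, Slc48a1, Slc16a5, Slc6a6 and Slc2a12. The members and lists were chosen with earlier results of these data known. Named genes are every carrier past the threshold, the smallest p in each substrate group, a list of carriers studied in T cells, and the called or smallest-p genes of the context lists. Others, such as Slc25a36, Slc25a23, Slc35a4, Slc36a4 and Slc12a7, were chosen after their values were seen. A gene that the rule names is not reported here.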

Additional observations from a re-analysis of the deposited data

How the results depend on the processing

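The number of carriers called, 4, was 3 to 4 with other pseudocounts, TMM scaling, edgeR or voom. It was 7 with a mean of at least 50, 13 with library size scaling, 11 with DESeq2 on recovered reads and 2 with the length trend removed (Slc25a28 and Slc44a2). Leaving out 1 library gave 0 to 2, against 113 to 403 of all genes. The Slc25 count, 2, became 4 with library size scaling, 4 with DESeq2 and 1 with the length trend removed, and 0 to 1 with 1 library left out. The Slc7 and Slc38 count, 1, became 2 with library size scaling, 0 with the length trend removed, and 0 to 1 with 1 library left out. With DESeq2 891 of all genes passed, with library size scaling 935 (169 higher, against 246 of 518), and with the length trend removed 302.

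Same-numbered libraries did not deviate together over all genes (correlations 0.009, -0.04 and -0.069). Such values cannot exclude a pairing, so whether the numbers pair the libraries is not known. A replicate block gave 2 carriers (Slc25a28 and Slc38a1), 1 of them in Slc25 and 1 in Slc7 and Slc38, and 372 of all genes. Of the 4 called genes, Slc25a28 did not pass with library size scaling (0.50, limma adjusted p = 0.093), nor Slc35a3 with a pseudocount of 0.5 (adjusted p = 0.0501).

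Signs that changed were of small uncalled estimates. With library size scaling, log2 fold changes were -0.12 for Slc12a7, -0.052 for Slc19a1, -0.11 for Slc29a1, -0.045 for Slc38a9, -0.080 for Slc6a19, -0.11 for Slc7a1 and -0.086 for Slc7a6. With the length trend removed they were 0.021 for Slc25a3 and 0.032 for Slc2a3, and with voom -0.010 for Slc7a1. With 1 library left out they ran from -0.018 to 0.033 for Slc12a7, -0.059 to 0.22 for Slc19a1, -0.17 to 0.068 for Slc25a3, -0.11 to 0.11 for Slc29a1, -0.033 to 0.30 for Slc29a3, -0.14 to 0.064 for Slc2a3, -0.20 to 0.0042 for Slc3a2, -0.040 to 0.13 for Slc6a19, -0.075 to 0.11 for Slc7a1 and -0.11 to 0.24 for Slc7a6. Of 994 comparisons of a named gene under an alternative, 906 kept direction and side of the threshold, 37 lost a call, 25 gained one and 26 changed sign. The cause of these changes was not tested.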
